A study of Mus musculus with 56 samples.

Results

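Amino acid transporters of 6 solute carrier families (Slc1, Slc3, Slc7, Slc36, Slc38 and Slc43) were followed in the RNA of visceral adipose tissue (VAT) over the day. The members were all protein-coding genes of the expression table whose symbol belongs to one of these families, 38 of 25939 genes. Female C57BL/6J mice aged 9 weeks had been fed for 7 days either in the light only (daytime-restricted feeding, DRF) or in the dark only (nighttime-restricted feeding, NRF), on a cycle of 12 h of light. Each regimen was sampled at 7 zeitgeber times (ZT, hours after lights on) from ZT0 to ZT24, with 4 mice at each, which gave 56 libraries of polyA RNA from whole tissue. All mice were wild type, both regimens restricted feeding in time, and no mouse in these libraries was fed freely. In whole tissue, fewer cells of a type and less RNA per cell cannot be told apart.

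Amino acids cross the plasma membrane and the lysosomal membrane on these carriers. The light chains of Slc7 mostly work as exchangers bound to a heavy chain of Slc3. The Slc1 family takes up glutamate or exchanges small neutral amino acids, and the Slc38 and Slc36 families couple neutral amino acids to sodium or protons. The Slc43 family holds carriers of large neutral amino acids. Several of these genes are known targets of ATF4, the factor that rises when amino acids are short, and some lysosomal members report amino acids to mTORC1, the kinase that drives growth. Slc7a10 and Slc36a2 are also known as surface markers of white and brown fat cells, respectively.

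The deposited values were turned back into reads per gene, as described under the processing. Values are given as counts per 1e6 library reads (CPM), as RPKM where genes are compared with each other, or as differences on the log2(CPM + 1) scale, where the added 1 shrinks the differences of low genes. A library held 31144102 to 41246347 recovered reads (median 35541820). The 8 adipocyte markers summed to between 22189 and 46490 CPM in 54 libraries, and all 8 were detected. The 2 others were DRF libraries that stood apart, with sums of 12354 CPM (ZT8, mouse 1) and 18722 CPM (ZT0, mouse 4). The same 2 libraries held 611 and 5347 CPM of 7 epithelial markers, against at most 102 CPM in the other 54. A further library, NRF ZT24 mouse 4, held 1539 CPM of 4 liver markers, against at most 75.2 CPM elsewhere. Some of the results that rest on these libraries are given with and without them.

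Sequences before the start sites are shown for those of the 2 members with the largest fed-minus-fasted differences in each direction (Slc43a1 and Slc1a3, Slc1a4 and Slc1a1) whose 250 upstream bases (RefSeq, GRCm38.p6) hold no annotated exon. These are Slc1a3, on chr15:8710808-8711057 (minus strand), and Slc1a4, on chr11:20332714-20332963 (minus strand). Capitals mark the motif CCAAT, found on either strand.
Slc1a3: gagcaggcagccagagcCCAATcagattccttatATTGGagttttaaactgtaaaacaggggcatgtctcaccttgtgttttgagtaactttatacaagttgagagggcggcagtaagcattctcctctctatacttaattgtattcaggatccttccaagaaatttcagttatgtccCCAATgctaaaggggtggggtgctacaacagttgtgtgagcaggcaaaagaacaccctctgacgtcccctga
Slc1a4: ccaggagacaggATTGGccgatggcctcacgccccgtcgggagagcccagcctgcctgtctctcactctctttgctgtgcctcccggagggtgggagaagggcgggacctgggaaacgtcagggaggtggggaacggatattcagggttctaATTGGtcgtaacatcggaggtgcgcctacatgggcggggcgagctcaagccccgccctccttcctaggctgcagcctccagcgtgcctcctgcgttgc
Slc1a3 holds CCAAT at 233, 216 and 72 bases before its start, and Slc1a4 at 238 and 98. Of 32851 promoters, 33.8% held CCAAT in the same window, as did 9 of the 28 members with a promoter entry.

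The E-box CACGTG, the motif bound by clock factors among others, was present in 6 of the 28 members and in 6.02% of all promoters. Of those 6, Slc1a6, Slc1a7 and Slc38a5 did not pass the fed-minus-fasted test. The 30 bases around the E-box are shown for the 3 members that also differed with feeding, with the E-box in capitals. They lie on chr2:84840247-84840276 (plus strand) for Slc43a1, chr8:95853508-95853537 (minus strand) for Slc38a7 and chr11:55204297-55204326 (plus strand) for Slc36a1.
Slc43a1: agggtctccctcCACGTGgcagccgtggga
Slc38a7: gtgattcaggctCACGTGttacttgagtcg
Slc36a1: ggaatggagcggCACGTGacctgggctagg
The E-box starts 64, 34 and 31 bases before the RefSeq start in these genes, in that order. The first and second stretches lie in an exon of an annotated transcript. The ATF4 composite TGATGNAA was found in Slc7a11 and Slc7a7, against 3.45% of all promoters, and the D-box TTANGTAA in no member, against 2.06%. Motifs were searched on both strands, no motif contains another, and a match of letters is a description only.

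Levels per length ran from 0.0193 RPKM for Slc7a9 to 345 RPKM for Slc1a5. Slc1a5, the glutamine and neutral amino acid exchanger ASCT2, was the most abundant member, at 345 ± 121 RPKM (SD, n = 56). Slc36a2, a proton-coupled carrier of glycine and proline, followed at 101 ± 16.8 RPKM, and Slc7a10, the exchanger of small neutral amino acids Asc-1, at 63.6 ± 21.5 RPKM. Slc38a10 reached 43.2 ± 7.74 RPKM and Slc3a2, the heavy chain of CD98, 27.7 ± 9.33 RPKM. The spreads (mean ± SD) of neighbours in this order overlapped from Slc36a2 down to Slc3a2, and those of Slc1a5 and Slc36a2 did not. Slc7a5, the leucine exchanger LAT1 that pairs with Slc3a2, was at 1.47 ± 0.94 RPKM, below its relatives Slc7a6 (6.18 ± 1.40 RPKM) and Slc7a8 (3.19 ± 1.13 RPKM). At the other end, 9 members averaged under 1 CPM, among them Slc7a9 with a median of 1 read per library and Slc38a5 with 2.

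**Figure D1:**
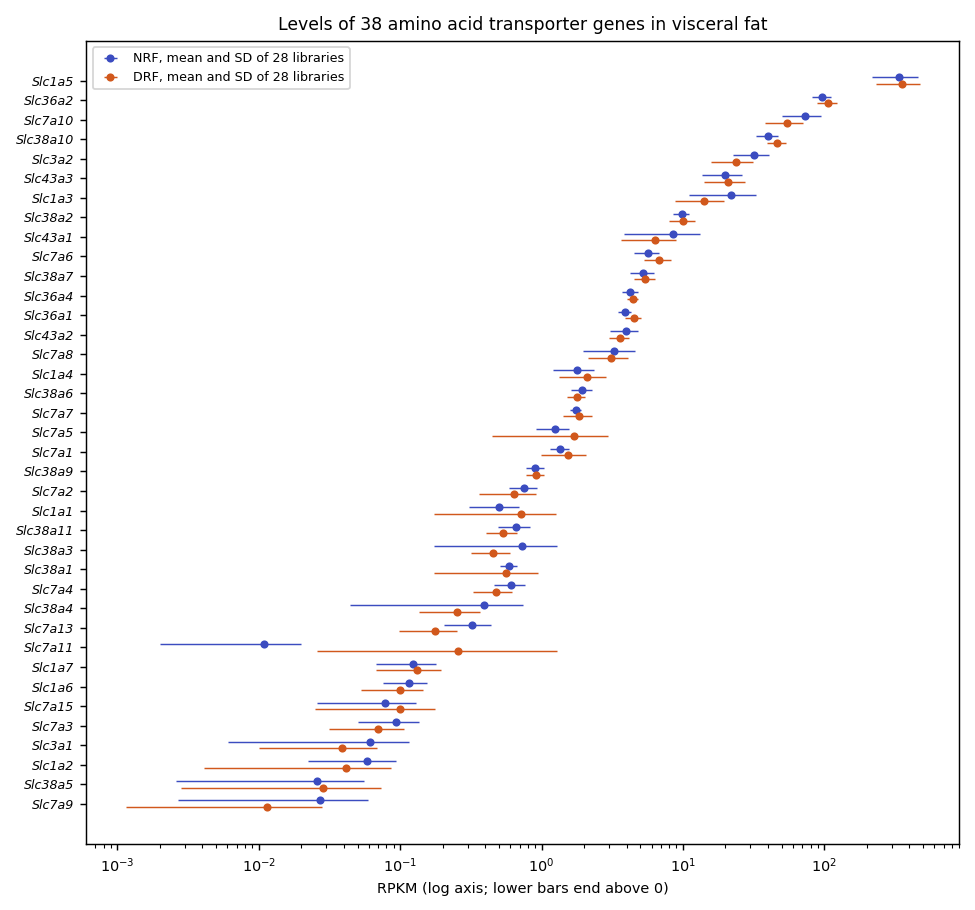
Mean RPKM (log axis) of each of the 38 members under NRF and DRF, with the SD over 28 libraries; lower bars are kept above 0. Slc1a5 leads at 345 RPKM over all 56 libraries, and the wide bars of Slc7a11, Slc7a5 and Slc38a1 under DRF include the 2 libraries that stand apart.

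To see which transporters followed the time of day, rhythms of 24 h were tested within each regimen. Under NRF 18 members were rhythmic, against 25.0% of all genes. Under DRF 13 members were rhythmic, against 13.4% of all genes, and 9 were dual-oscillating, that is rhythmic under both, against 8.12%. Those 9 were Slc43a1, Slc43a3, Slc1a5, Slc38a7, Slc7a6, Slc1a4, Slc1a3, Slc38a2 and Slc3a2. A further 9 passed under NRF only, 4 under DRF only (Slc43a2, Slc7a5, Slc38a9 and Slc7a2) and 16 under neither, and passing in one regimen only is not a test of a difference. On the recovered log2(CPM + 1) scale the DRF calls of Slc38a2 (adjusted p = 0.0226 on the deposited values and 0.150 there) and Slc7a2 (0.0386 and 0.138; exact JTK_CYCLE and Lomb-Scargle combined) were lost, which left 11 members rhythmic under DRF and 8 under both. Over all genes 3951 and 2480 were rhythmic on that scale. The rhythm itself differed between regimens in 21 members by the limma F test, against 36.0% of all genes. The whole table holds many low genes, whereas 29 members averaged at least 1 CPM. Of the 14303 genes with that mean, 6151 were rhythmic under NRF, 3405 under DRF and 2216 under both. The rhythm differed in 8058 of them. These shares are higher than those over all genes. Without the 2 DRF libraries that stood apart and the NRF libraries of the same time and number, 17 members were rhythmic under NRF, 16 under DRF and 11 under both. The counts over all genes moved too, to 5906, 4536 and 2498, from 6496, 3468 and 2107 with all libraries. Leaving out the mice of any 1 replicate number gave 10 to 14, 7 to 11 and 5 to 9, and leaving out ZT24 gave 8 under DRF. All genes fell as well, to 3784 to 5090, 1487 to 2221 and 810 to 1180 with a replicate number left out, and to 2280 under DRF without ZT24.

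**Figure D2:**
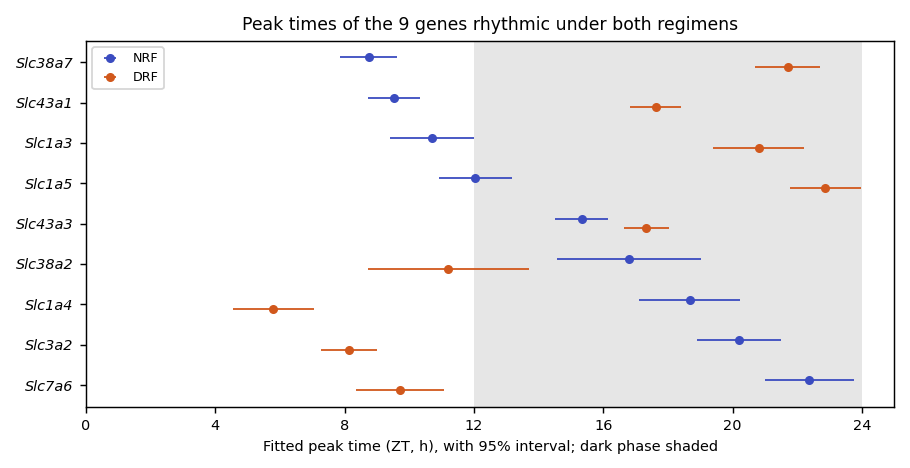
Fitted peak time (ZT, h) of the 9 dual-oscillating members under NRF and DRF, with 95% intervals; the dark phase is shaded. Slc43a3 peaks at ZT15.3 and ZT17.3, whereas Slc1a5, Slc3a2 and Slc38a7 peak 10.8 to 11.95 h apart.

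Of the 9 dual-oscillating members, 7 were phase inverted (fitted peaks at least 8 h apart), against 78.6% of all 2107 dual-oscillating genes, so the members' share is near that of all such genes. Slc38a2 lay between, and Slc43a3 was phase locked (at most 4 h apart), against 6.74% of them. The median distance over the 9 was 10.8 h. Peaks fell into an early and a late set relative to food. Slc38a7, Slc43a1, Slc1a3 and Slc1a5 peaked between ZT8.75 and ZT12.03 under NRF and between ZT17.6 and ZT22.9 under DRF, while food was absent or as it came. Slc1a4, Slc3a2 and Slc7a6 peaked between ZT18.7 and ZT22.4 under NRF and between ZT5.79 and ZT9.72 under DRF, while food was present.

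Fed and fasted phases were then compared at the 4 times that lie within them, ZT4 and ZT8 in the light and ZT16 and ZT20 in the dark. DRF mice were in the feeding phase at the former and NRF mice at the latter, so each clock time enters both sides of the mean equally. Where the regimens differ in size or sign, that mean can pass without a feeding difference common to both. Of the members, 10 were higher in the fed phase, against 12.4% of all genes, and 8 were lower, against 12.1%. Of the 14303 genes with a mean of at least 1 CPM, 3173 were higher and 2605 lower. Within each regimen alone, Slc1a1, Slc1a4 and Slc3a2 of the 10 passed under both, and Slc7a10 under neither. Among the 8, Slc43a1, Slc38a7 and Slc36a4 were lower under both, whereas Slc7a8 was lower under NRF (-1.05) and higher under DRF (0.45). The others passed in a single regimen only. The median difference was -0.0033 over the members and -0.0036 over all genes. Without the libraries that stood apart and their partners the same 10 and the same 8 passed. With all mice numbered 2 left out, 5 members were higher, without Slc7a5, Slc7a6, Slc7a10, Slc36a1 and Slc38a2. With those numbered 2 or 4 left out, 5 were lower, without Slc1a2, Slc7a8 and Slc7a9. Over all genes 2484 were higher without number 2, against 3228 with all mice. Lower were 2380 without number 2 and 2289 without number 4, against 3129.

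Among the carriers of large neutral amino acids, Slc43a1 (LAT3; ENSMUSG00000027075, GRCm38 chr2:84838850-84863594), which releases leucine and its relatives without a heavy chain, showed the largest difference. Under NRF the 8 fasted libraries ran from 31.6 CPM through a median of 65.9 to 106 CPM, and the 8 fed ones from 18.4 through 33.7 to 46.4 CPM. Under DRF the fasted libraries ran from 43.9 through 55.8 to 66.2 CPM and the fed ones from 11.3 through 21.9 to 26.5 CPM. The fed and fasted groups overlapped under NRF and not under DRF. The gene was 2.22-fold lower when fed (log2 difference -1.15 ± 0.12, SE; limma, adjusted p = 3.68e-10), with -0.90 under NRF and -1.40 under DRF. It peaked at ZT8 under NRF (85.4 ± 17.2 CPM, SD, n = 4) and at ZT16 under DRF (61.7 ± 4.47 CPM), and the fitted peak moved by 8.10 h (95% interval 6.95 to 9.25 h). The E-box shown above for this gene lies in an exon of an annotated transcript, and its part in these levels was not tested.

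Slc43a2 (LAT4), its close relative, moved the other way. Its fed libraries had a median of 46.7 CPM against 33.4 CPM fasted under NRF, and 41.1 against 35.0 CPM under DRF, with overlap under both. The difference was 0.30 ± 0.07 (limma, adjusted p = 3.73e-04). The gene shares sequence on the opposite strand with Gm45606, and the library kit does not mark strand, so a few of its reads may belong to that gene.

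The heavy chain Slc3a2 (ENSMUSG00000010095, GRCm38 chr19:8706882-8723369) rose with food. Under NRF its fasted libraries ran from 70.0 through 87.6 to 117 CPM and its fed ones from 113 through 126 to 198 CPM. Under DRF the fasted ones ran from 55.5 through 59.9 to 83.0 CPM and the fed ones from 97.1 through 110 to 150 CPM. Every fed DRF library lay above every fasted one, while the NRF groups overlapped. The gene was 1.64-fold higher when fed (0.72 ± 0.09; limma, adjusted p = 1.03e-08), and its peak moved from ZT20.2 to ZT8.13, 11.95 h apart (95% interval 10.35 to 13.55 h). The other heavy chain, Slc3a1, which serves cystine carriers, had a median of 4 reads per library.

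**Figure D3:**
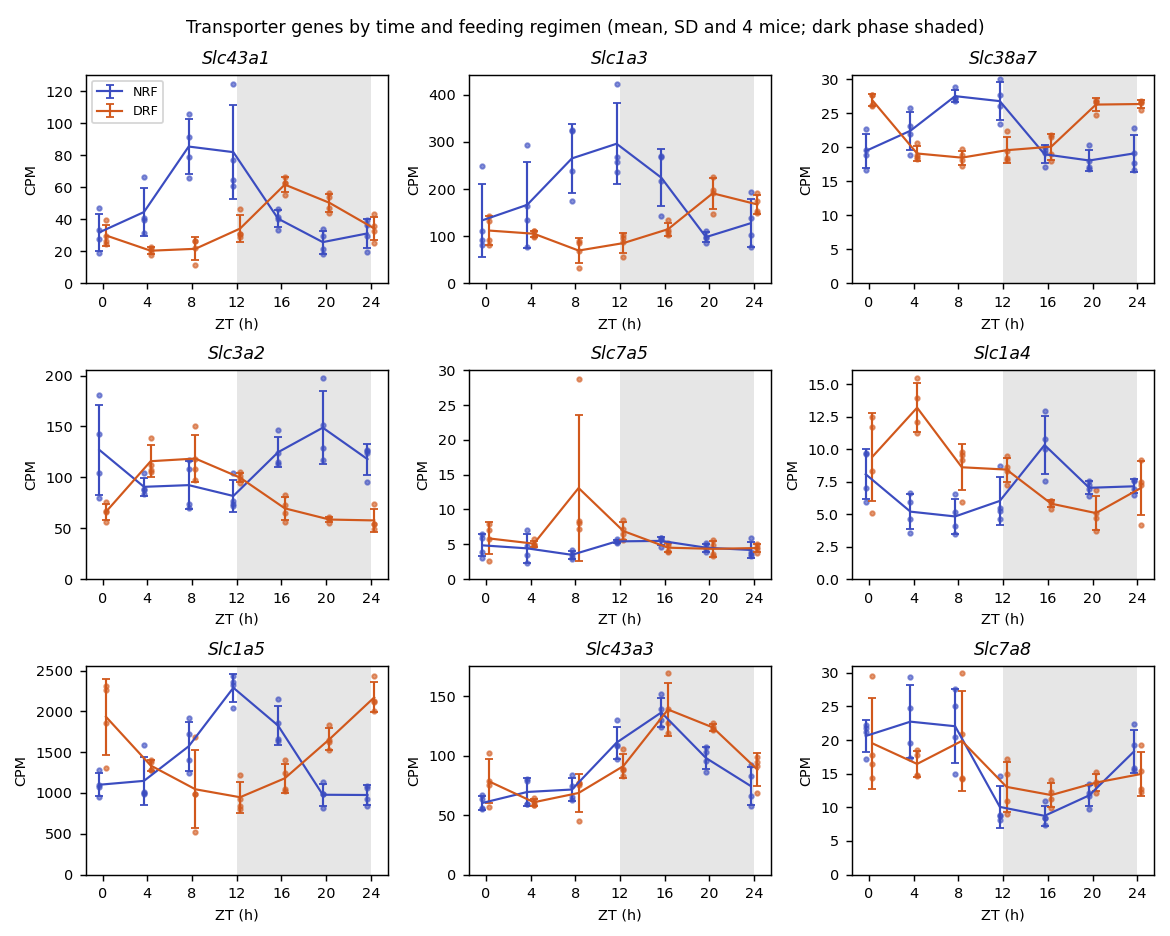
CPM of 9 members by ZT (h) under NRF and DRF; lines join means, bars are SD and points are the 4 mice. Slc43a1, Slc1a3, Slc38a7 and Slc1a5 peak before or around the start of feeding, Slc3a2 and Slc1a4 during it, and Slc43a3 peaks at ZT16 under both regimens.

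Of the light chains that join Slc3a2, Slc7a5 was also higher when fed in the mean of both regimens. Its fed median was 4.98 CPM against 3.53 CPM fasted under NRF, and 6.46 against 4.46 CPM under DRF. The highest DRF value, 28.7 CPM at ZT8, came from mouse 1, one of the libraries that stood apart, and the other mice of that group read 7.19 to 8.32 CPM. The difference was 0.49 ± 0.13 (limma, adjusted p = 0.00293) and stayed at 0.38 ± 0.11 (limma, adjusted p = 0.00514) without the libraries that stood apart. By regimen it was 0.32 under NRF (limma, adjusted p = 0.234) and 0.67 under DRF (limma, adjusted p = 0.00646). Slc7a6 (y+LAT2), which exchanges cationic for neutral amino acids, was higher when fed by 0.26 ± 0.07 (limma, adjusted p = 0.00519). That call was lost with replicate 2 or 4 left out. By regimen Slc7a6 differed by 0.22 under NRF (limma, adjusted p = 0.118) and 0.29 under DRF (limma, adjusted p = 0.0346). Slc7a10 was higher by 0.31 ± 0.11 (limma, adjusted p = 0.0300), a call that was lost with any of replicates 2, 3 or 4 left out and on the deposited values. By regimen Slc7a10 differed by 0.21 under NRF (limma, adjusted p = 0.370) and 0.41 under DRF (limma, adjusted p = 0.0575). Without the libraries that stood apart it was higher by 0.38 ± 0.09 (limma, adjusted p = 5.83e-04). Its DRF rhythm also passed without them (adjusted p = 4.93e-04, and 0.116 with all libraries, exact JTK_CYCLE and Lomb-Scargle combined). Slc7a10 overlaps Lrp3 on the opposite strand, a gene at a mean of 37.8 CPM against 134 CPM for Slc7a10.

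Slc7a8 (LAT2), a second partner of Slc3a2, was higher in the light under both regimens. Under NRF the fasted light-phase libraries ran from 15.0 through 22.6 to 29.3 CPM and the fed dark-phase ones from 7.33 through 10.3 to 13.5 CPM. Under DRF the fed light-phase libraries ran from 14.2 through 16.3 to 29.9 CPM and the fasted dark-phase ones from 9.87 through 12.8 to 15.3 CPM. The light and dark groups stood without overlap under NRF and with overlap under DRF. The 29.9 CPM came from DRF ZT8 mouse 1, a library that stood apart. DRF ZT0 mouse 4, the other such library, read 29.5 CPM, and the remaining DRF libraries read at most 21.0 CPM. Without both and their NRF partners the fed-minus-fasted difference under DRF was 0.34. Dark minus light was -0.75 ± 0.10 (limma, adjusted p = 1.59e-06), and the gene was also called lower when fed (-0.30 ± 0.10; limma, adjusted p = 0.0280), with -1.05 under NRF and 0.45 under DRF. Fitted peaks were at ZT3.86 under NRF and ZT4.22 under DRF, 0.35 h apart with a 95% interval from -1.89 to 2.60 h. However, its DRF rhythm did not pass the test (adjusted p = 0.131, exact JTK_CYCLE and Lomb-Scargle combined). It passed the limma F test of cosine and sine (adjusted p = 0.0226). The DRF peak and both of these tests include the libraries that stood apart. Without them the DRF rhythm did not pass either (adjusted p = 0.118, exact JTK_CYCLE and Lomb-Scargle combined).

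Slc43a3 (ENSMUSG00000027074), a family member known to carry purine nucleobases, was higher in the dark under both regimens. Under NRF its light-phase libraries ran from 59.0 through 69.8 to 84.0 CPM and its dark-phase ones from 86.4 through 116 to 152 CPM. Under DRF the light-phase values ran from 45.1 through 63.0 to 77.0 CPM and the dark-phase ones from 119 through 126 to 169 CPM. Neither regimen showed overlap. Dark minus light was 0.87 ± 0.07 (limma, adjusted p = 1.45e-11), and both regimens had their highest mean at ZT16, at 136 ± 12.1 CPM under NRF and 139 ± 22.1 CPM under DRF. The fitted peaks were 1.997 h apart (95% interval 0.89 to 3.10 h). Slc43a1 and Slc43a3 lie on the same stretch of chromosome 2 and had the opposite order in the fed and fasted phases of NRF.

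Across the members, 2 were higher in the dark than in the light (Slc43a3 and Slc38a9), against 6.08% of all genes. In turn 2 were lower (Slc7a8 and Slc7a13), against 6.08%. Of the 14303 genes with a mean of at least 1 CPM, 1558 were higher and 1594 lower. Slc38a4 did not pass (-0.37 ± 0.13; limma, adjusted p = 0.0535). It was called lower in the dark with the replicate block, on the deposited values and with NRF ZT24 mouse 4 left out, among other settings. Its fed-minus-fasted difference was -0.65 under NRF and 0.10 under DRF. Slc38a9, the lysosomal arginine sensor that signals to mTORC1, differed by 0.16 ± 0.05 (limma, adjusted p = 0.0185), and was also lower when fed, by -0.41 under DRF and -0.09 under NRF. Its dark and light medians were 17.6 and 12.7 CPM under DRF, without overlap, and 14.5 and 15.0 CPM under NRF, with overlap. The NRF difference did not pass (limma, adjusted p = 0.376), so a higher level in the dark was seen under DRF only. Its dark call was lost on the deposited values (limma, adjusted p = 0.0766) and with replicate 2, 3 or 4 left out. Slc7a13, a light chain at 0.53 CPM on average, differed by -0.20 ± 0.06 (limma, adjusted p = 0.0235), a call that was lost with replicate 1 or 2 left out and fell away where genes under a mean of 1 CPM were not tested.

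**Figure D4:**
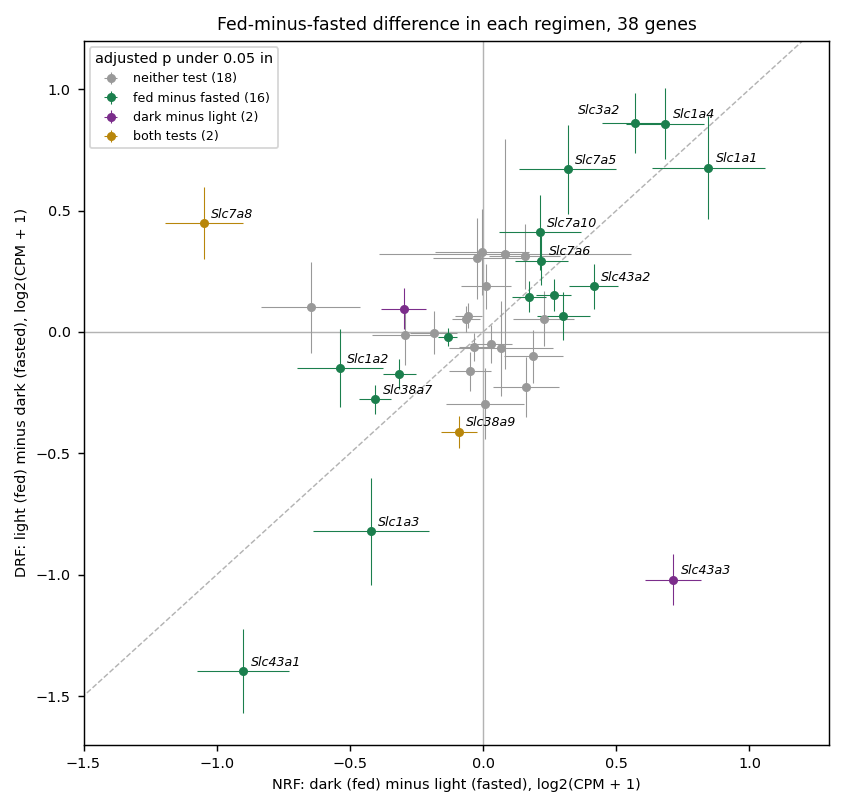
Each of the 38 members by its fed-minus-fasted difference under NRF (x axis) and DRF (y axis), on the log2(CPM + 1) scale with SE; the dashed line marks equal differences. Slc43a1 and Slc1a3 lie at lower left, Slc3a2, Slc1a4 and Slc1a1 at upper right, and Slc43a3 and Slc7a8 in the corners of opposite sign.

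The 2 neutral exchangers of Slc1 were both phase inverted but peaked at different points of the cycle. Slc1a4 (ASCT1), which exchanges serine, alanine and cysteine, was higher when fed. Its fed libraries ran from 6.38 through 7.58 to 13.0 CPM under NRF, against 3.47 through 4.88 to 6.63 CPM fasted, and from 5.96 through 10.5 to 15.5 CPM under DRF, against 3.70 through 5.62 to 6.88 CPM. The groups overlapped at their edges under both regimens. The fold was 1.71 (0.77 ± 0.10; limma, adjusted p = 7.67e-08), and its promoter is shown above. Slc1a5 did not pass the fed-minus-fasted test (-0.14 ± 0.10; limma, adjusted p = 0.369), with a difference of -0.06 without the libraries that stood apart, and these phases leave out ZT0, ZT12 and ZT24. Its highest mean was 2291 ± 174 CPM at ZT12 under NRF and 2172 ± 184 CPM at ZT24 under DRF, and its lowest 975 ± 118 CPM at ZT24 and 948 ± 191 CPM at ZT12. The peak of each regimen stood at the hour of the other's trough, with fitted peaks 10.8 h apart (95% interval 9.22 to 12.4 h).

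Of the glutamate carriers, Slc1a3 (GLAST; ENSMUSG00000005360) was lower when fed. Its fasted libraries had a median of 206 CPM (76.4 to 324 CPM) against 127 CPM (86.7 to 269 CPM) fed under NRF, and 141 CPM (102 to 226 CPM) against 94.7 CPM (32.9 to 111 CPM) under DRF. The groups overlapped under both, and the difference was -0.62 ± 0.15 (limma, adjusted p = 0.00172). By regimen it was -0.42 under NRF (limma, adjusted p = 0.178) and -0.82 under DRF (limma, adjusted p = 0.00519). The lowest fed value under DRF, 32.9 CPM, came from ZT8 mouse 1, whose library stood apart. Without the libraries that stood apart and their NRF partners the mean difference was -0.55 ± 0.15 (limma, adjusted p = 0.00500). Slc1a1 (EAAC1), which carries glutamate and cysteine, was higher when fed, at a median of 4.06 CPM (2.86 to 5.13 CPM) against 1.61 CPM (0.75 to 3.01 CPM) under NRF. Under DRF it read 4.57 CPM (3.77 to 13.7 CPM) fed and 2.83 CPM (1.88 to 4.02 CPM) fasted. The difference was 0.76 ± 0.15 (limma, adjusted p = 8.10e-05) with all libraries and 0.67 ± 0.10 (limma, adjusted p = 1.72e-06) without those that stood apart, where Slc1a1 was highest. It overlaps 4430402I18Rik on the opposite strand, a gene at a mean of 8.88 CPM against 3.76 CPM for Slc1a1, and reads of these genes cannot be told apart where they overlap. Slc1a2 (GLT-1) was lower by -0.34 ± 0.11 (limma, adjusted p = 0.0201) at a median of 17.5 reads per library, a call that was lost when replicate 2, 3 or 4 was left out. The difference was -0.54 under NRF and -0.15 under DRF, where the medians were 0.41 CPM fed and 0.39 CPM fasted and 1 fasted mouse read 3.38 CPM.

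Among the Slc38 carriers, Slc38a7, a lysosomal exporter of glutamine, was lower when fed, at a median of 18.6 CPM against 26.2 CPM under NRF and 18.7 against 23.3 CPM under DRF. The difference of -0.34 ± 0.04 (limma, adjusted p = 1.40e-08) came with fitted peaks at ZT8.75 and ZT21.7, 11.05 h apart. Slc38a2 (SNAT2), the carrier best known for its response to amino acid shortage, was higher when fed by 0.18 ± 0.07 (limma, adjusted p = 0.0466), a call that was lost with another scaling of the libraries (limma, adjusted p = 0.0539) and with replicate 1, 2 or 4 left out. By regimen the difference was 0.30 under NRF and 0.07 under DRF, and 0.31 and 0.02 without the libraries that stood apart. Both libraries that stood apart held the highest Slc38a2 levels of DRF, at 142 and 121 CPM against at most 111 CPM in the others.

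Of the proton-coupled carriers, Slc36a1 (PAT1), found on lysosomes, was higher when fed by 0.16 ± 0.05 (limma, adjusted p = 0.00720), a call lost with replicate 2 or 3 left out, and Slc36a4 was lower by -0.24 ± 0.04 (limma, adjusted p = 1.45e-05). Slc36a2 differed by 0.04 ± 0.08 (limma, adjusted p = 0.765), with medians of 323 CPM fed and 270 CPM fasted under NRF and of 372 and 378 CPM under DRF. Without the libraries that stood apart it differed by 0.11 ± 0.06 (limma, adjusted p = 0.164), and the difference under DRF turned from -0.10 to 0.02. Of the 4 cationic transporters, 0 passed the fed-minus-fasted test by limma with all libraries and genes or by limma voom. Slc7a1 had an unadjusted p below 0.05 (0.23 ± 0.09; limma, adjusted p = 0.0644), and passed as higher when genes under a mean of 1 CPM or replicate 3 were left out. Without the libraries that stood apart its difference was 0.14 ± 0.07 (limma, adjusted p = 0.118). Slc7a15 and Slc7a9, the other members that passed it, had medians of 9 and 1 reads per library.

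Mean levels over the day were compared between regimens. Under DRF 5 members were higher, against 11.4% of all genes, and 12 were lower, against 10.3%. Of the 14303 genes with a mean of at least 1 CPM, 2828 were higher and 2580 lower. The median difference was -0.03 over the members and -0.0004 over all genes. With replicate 2 left out, 6 were lower, while the count over all genes fell from 2668 to 1732. Marker sums also differed in their medians, at 34186 CPM under NRF and 31028 CPM under DRF for adipocytes, 470 and 374 CPM for 5 macrophage markers, 457 and 351 CPM for 6 mesothelial markers and 260 and 453 CPM for 4 blood markers. They were 36.6 and 55.2 CPM for 5 skeletal muscle markers, 24.5 and 35.8 CPM for 4 liver markers and 64.4 and 77.5 CPM for 5 brown or beige adipocyte markers. The ranges over libraries overlapped in each case, and the part of these markers in the mean levels was not tested. The largest falls were Slc1a3 (-0.72 ± 0.12; limma, adjusted p = 1.09e-05), Slc7a10 (-0.52 ± 0.08; limma, adjusted p = 4.30e-06) and Slc43a1 (-0.45 ± 0.09; limma, adjusted p = 1.92e-04). Slc3a2 was lower by -0.36 ± 0.07 (limma, adjusted p = 1.13e-04). Slc38a3 (SNAT3), a glutamine carrier abundant in liver, was lower by -0.42 ± 0.12 (limma, adjusted p = 0.00820; lost with replicate 1 left out), and by -0.35 ± 0.08 (limma, adjusted p = 0.00149) without NRF ZT24 mouse 4. That library, in which the liver markers were high, read 17.6 CPM of Slc38a3 against 2.47 to 3.36 CPM in its group.

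The members higher under DRF were Slc7a6 (0.32 ± 0.05; limma, adjusted p = 9.14e-06), Slc36a1, Slc38a10, Slc7a5 and Slc1a1. With replicate 1, 2 or 3 left out the number fell to 3, without Slc7a5 and Slc1a1. Over all genes it fell from 2964 to 2462, 2138 and 2116, in that order. Slc1a1 was also lost without replicate 4 and Slc7a5 without the ZT24 libraries. Without the libraries that stood apart Slc1a1 no longer passed (0.19 ± 0.08; limma, adjusted p = 0.0709), and Slc7a5 did (0.22 ± 0.08; limma, adjusted p = 0.0363). Slc36a2, at 0.12 ± 0.07 (limma, adjusted p = 0.203), passed without them at 0.20 ± 0.05 (limma, adjusted p = 0.00127). Without them 14 members were lower, with Slc38a1 (-0.16 ± 0.10; limma, adjusted p = 0.277 with all libraries, and -0.27 ± 0.05; limma, adjusted p = 4.57e-05 without) and Slc7a3 added. Lower genes over the whole table also rose without them, from 2668 to 3637.

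**Figure D5:**
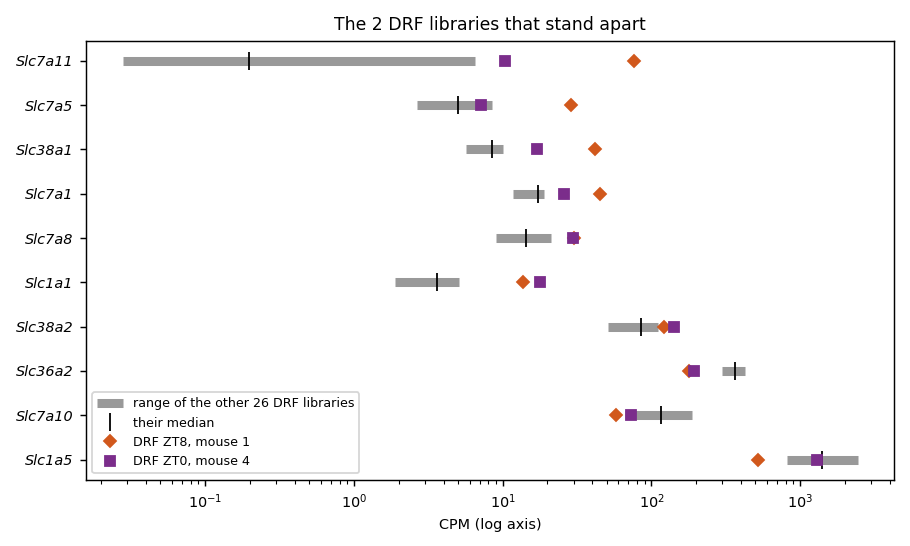
CPM (log axis) of 10 members in the 2 DRF libraries that stood apart, beside the range (grey) and median of the other 26 DRF libraries. Slc7a11 reads 75.9 CPM in DRF ZT8 mouse 1 against a median of 0.197 CPM, and Slc36a2 lies below the range in both.

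In both libraries that stood apart 9 members lay above every other DRF library, against 8.50% of all genes, and 3 (Slc36a2, Slc38a10 and Slc43a3) lay below, against 6.16%. Slc7a11, the cystine and glutamate exchanger xCT, read 75.9 CPM in DRF ZT8 mouse 1 and 10.4 CPM in DRF ZT0 mouse 4, against 0.0279 to 6.48 CPM in the other DRF libraries. Slc7a1, the arginine carrier CAT1, read 45.2 and 25.8 CPM against at most 19.1 CPM, and Slc38a1, a glutamine carrier, 41.6 and 16.9 CPM against at most 10.1 CPM. Slc1a1 read 13.7 and 17.9 CPM against at most 5.11 CPM. Slc36a2 read 180 and 193 CPM against at least 300 CPM. The 2 libraries had the lowest adipocyte and the highest epithelial marker sums. Between them the epithelial sum was higher in DRF ZT0 mouse 4 (5347 against 611 CPM), and of the 9 raised members 4 (Slc38a2, Slc1a1, Slc7a7 and Slc38a4) were higher and 5 (Slc7a11, Slc7a1, Slc38a1, Slc7a8 and Slc7a4) lower in it than in DRF ZT8 mouse 1. Slc7a7 and Slc7a4 overlap more abundant genes on the opposite strand, Oxa1l (60.3 against 5.96 CPM) and P2rx6 (14.3 against 2.25 CPM), whose reads cannot be told apart from theirs where they overlap. The part of these markers in the levels was not tested.

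Other genes of amino acid supply were read from 4 lists. The counts of fed-minus-fasted calls below stand against 12.4% of all genes higher and 12.1% lower, and several are near those shares. Most listed genes averaged at least 1 CPM, where 3173 of 14303 genes were higher and 2605 lower. Of 24 genes on the ATF4 list, which holds Atf4 and its targets, 7 were higher and 2 (Gpt2 and Vldlr) lower when fed. Atf4, one of those 7, was higher by 0.90 ± 0.09 (limma, adjusted p = 3.86e-11). Its medians were 145 CPM fed and 84.5 CPM fasted under NRF, and 162 and 74.8 CPM under DRF. Fgf21, a hormone induced by amino acid shortage, was higher by 1.46 ± 0.17 (limma, adjusted p = 4.08e-09). Its level was low, at a mean of 1.44 CPM. The medians were 2.22 CPM fed and 0.240 CPM fasted under NRF, and 3.29 and 0.217 CPM under DRF, with overlap under both. Of 35 genes of amino acid sensing by mTORC1, 8 were higher and 6 lower, among the latter the leucine sensor family member Sesn3 (-0.50 ± 0.08; limma, adjusted p = 1.86e-06) and the arginine sensor Castor1 (-0.36 ± 0.09; limma, adjusted p = 8.73e-04). Of 22 enzymes of glutamine, glutamate and serine, 2 were higher, Psph of serine synthesis (0.84 ± 0.15; limma, adjusted p = 1.78e-05) and Asns of asparagine synthesis (0.50 ± 0.08; limma, adjusted p = 2.05e-06), and 1, the alanine transaminase Gpt2, was lower. Both are also on the ATF4 list. Of 16 other amino acid and peptide transporters, 3 were higher, the taurine carrier Slc6a6, Mfsd12, which brings cysteine into lysosomes (1.03 ± 0.11; limma, adjusted p = 2.24e-10), and Slc16a10, a carrier of aromatic amino acids (0.47 ± 0.09; limma, adjusted p = 5.18e-05).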

How the data were processed

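VAT RNA of 56 mice was sequenced, and regimen, time and replicate number were taken from the labels. The authors aligned reads with HISAT2 2.0.5 to mm10 and counted them with featureCounts 1.5.0-p3, per their processing notes. The authors deposited 1 value per gene, named TPM, which is treated as a score: log2(CPM + 1) divided by exon length and rescaled per library. Whole reads were recovered with GENCODE vM21 exon lengths (99.9994% of 1424971 values within 0.02 of a whole read). The plan assumed linear TPM, and recovered log2(CPM + 1) took its place in limma. Scd1 could not be resolved and was left out of limma. Precision follows from 31144102 to 41246347 recovered reads per library.

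Rhythms were tested per regimen on the deposited values with JTK_CYCLE and Lomb-Scargle at 24 h combined by Fisher's method (Python 3.11.15, numpy 2.4.6, scipy 1.17.1, pandas 2.3.3), over 25939 genes. Levels were tested in limma 3.58.1 (R 4.3.3) with an intensity trend, by a cosine model per regimen and a model of 14 groups. Calls needed a Benjamini-Hochberg adjusted p below 0.05. Contrasts were two-sided, and the scripts were tested on simulated data. JTK_CYCLE and Lomb-Scargle read the same values, so their combined p is approximate. The replicates are different mice.

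Members and lists were chosen with earlier results of these data known. Members were named by a rule: the 10 largest fed-minus-fasted, the 5 largest mean-level and the 5 largest dark-minus-light differences past the threshold, and 6 by role; of each list, the 2 largest fed-minus-fasted differences. Slc6a6, Gpt2, Vldlr and the members listed behind small counts were named after their values were seen. Alternatives changed the values, pseudocount, filter, scaling, test, block and libraries. Other tissues were not analysed here.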

Additional observations from a re-analysis of the deposited data

Results flagged for a closer look

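In 18 of 252 groups of 4 mice of the named members, 1 mouse lay far from the other 3 on the log2(CPM + 1) scale, a gap that chance gives in about 1 in 20 groups. In the DRF ZT8 library of mouse 1, which stood apart by its markers, Slc7a5 was high (28.7 CPM, others 7.19 to 8.32) and Slc43a3 low (45.1 CPM, others 75.6 to 77.0). In the NRF ZT24 library of mouse 4, with its liver markers, Slc38a3 (17.6 CPM, others 2.47 to 3.36) and Slc38a2 (99.96 CPM, others 83.1 to 85.7) were high. Slc1a2 was high in 4 groups, at 3.38 CPM in DRF ZT16 mouse 3, 2.24 CPM in NRF ZT24 mouse 3, 0.641 CPM in DRF ZT24 mouse 4 and 0.486 CPM in NRF ZT16 mouse 3.

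Other high values were Slc1a1 in DRF ZT20 mouse 2 (4.02 CPM, others 2.67 to 2.85), Slc1a5 in NRF ZT4 mouse 1 (1592 CPM, others 991 to 1017), Slc43a1 in DRF ZT12 mouse 4 (46.5 CPM, others 28.8 to 31.0), Slc43a2 in NRF ZT24 mouse 2 (55.6 CPM, others 44.6 to 46.1) and Slc7a8 in NRF ZT12 mouse 1 (14.7 CPM, others 8.06 to 8.83). Other low values were Slc1a4 in DRF ZT8 mouse 2 (5.96 CPM, others 9.18 to 9.79), Slc36a2 in DRF ZT24 mouse 3 (318 CPM, others 363 to 367), Slc38a7 in DRF ZT20 mouse 3 (24.8 CPM, others 26.7 to 26.9), Slc3a2 in NRF ZT24 mouse 1 (95.2 CPM, others 124 to 127) and Slc43a2 in NRF ZT0 mouse 1 (23.1 CPM, others 42.6 to 46.4).

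The fed-minus-fasted difference itself differed between DRF and NRF in 4 named members, by the same limma contrast as dark minus light. DRF minus NRF was -1.73 for Slc43a3 (adjusted p = 1.45e-11), 1.497 for Slc7a8 (adjusted p = 1.59e-06), -0.32 for Slc38a9 (adjusted p = 0.0185) and 0.39 for Slc7a13 (adjusted p = 0.0235).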

How the results depend on the processing

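Of the 120 alternative values of the counts of members, 97 stayed within 1.5 times the count given in the report. Members rhythmic under DRF were 8 without the ZT24 libraries, members rhythmic under both regimens were 14 by a limma F test of cosine and sine, and 1 member was higher in the dark on log2(deposited value + 1). The cause was not tested. Leaving out each replicate number in turn gave 10 to 14 members rhythmic under NRF, 7 to 11 under DRF and 5 to 9 under both, 3 to 5 with a higher and 6 to 9 with a lower mean level under DRF, 5 to 10 higher and 5 to 8 lower when fed, and 1 to 2 higher and 1 to 4 lower in the dark, with fewer mice in each fit. The same counts over all genes fell each time a replicate number was left out. Of the 319 values of single members, 293 kept their direction and call, 23 no longer passed, 1 newly passed and 2 reversed without having passed a test. The Slc36a2 fed-minus-fasted difference ran from -0.0207 (without replicate 4) to 0.125, and the Slc38a2 mean-level difference was -0.00095 without the libraries that stood apart. Leaving out NRF ZT24 mouse 4, chosen after seeing the data, moved no count beyond 1.5 times. It added Slc38a4 to the members lower when fed and to those lower in the dark. It also added Slc7a15 to the members with a higher mean level under DRF, and Slc7a2 no longer passed as lower. Same-numbered mice did not deviate together (median correlation 0.0225, over 0.1 in 8 of 28 pairs), and with the replicate block 10 members were higher and 8 lower when fed. Members under 1 CPM rest on few reads.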
